A study of Mus musculus with 6 samples.

Results

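The genes described here encode integrin subunits and intercellular adhesion molecules (ICAMs) of lymphocytes. There were 9, namely the alpha subunit genes Itga4, Itgal, Itgam and Itgax, the beta subunit genes Itgb1, Itgb2 and Itgb7, and the ligand genes Icam1 and Icam2, out of 19057 genes with a probe of a single gene symbol on the array. Each gene was read by its brightest probe, the one with the highest mean log2 intensity over the 6 arrays. Genes entered the test if that probe exceeded the median intensity of its array on 3 or more arrays, and 7 of the 9 did, all but Itgam and Itgax.

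Splenic B cells of C57BL/6 mice, an inbred strain, were purified at an age of 8 weeks. The untreated and the anti-IgM group had 3 samples each, and every sample was read on 1 Illumina bead array. Goat F(ab')2 antibody against mouse IgM, which cross-links the B cell antigen receptor, was given at 2.5 µg/ml for 3 h. CD40L (200 ng/ml) and IL-4 (5 ng/ml) are named in the same protocol, with no word on which samples they were added to. If they were added to the anti-IgM group alone, what they did and what the antibody did cannot be told apart.

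Integrins are receptors made of 1 alpha and 1 beta chain that bind ligands on other cells or in the matrix. The product of Itgal pairs with that of Itgb2 to form LFA-1, which binds the products of Icam1 and Icam2. The product of Itga4 pairs with that of Itgb1, for binding to VCAM-1 and fibronectin, or with that of Itgb7, for binding to MAdCAM-1 on vessels of the gut. In mouse spleen, LFA-1 and the Itga4-Itgb1 integrin help hold B cells in the marginal zone. Integrins change their affinity for ligand when signals inside the cell act on their cytoplasmic tails, a step that RNA levels do not show.

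The beta chain genes moved in opposite directions. Itgb7 fell 5.68-fold with anti-IgM, and Icam2 fell 1.89-fold. Itgb1 rose 1.56-fold and Itgb2 rose 1.49-fold. Itgal, Itga4 and Icam1 did not pass the test, and Itgam and Itgax were too dim to test. With limma and an adjusted p threshold of 0.05, 2 of the 7 tested genes rose and 2 fell, in a comparison in which 47.1% of all 11855 genes tested passed, 23.2% higher and 23.9% lower. The count of 4 among 7 is thus near the background. In whole-population RNA, fewer cells of a type and less RNA per cell cannot be told apart.

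The arrays as a whole differed in 1 respect that bears on these values. On the second principal component, the replicate 1 arrays of the untreated and the anti-IgM group lay away from the remaining 4. Xist, an RNA made in female cells, had an intensity of 52.6 on both replicate 1 arrays and between 791 and 2031 on the others. Eif2s3y, a gene of the Y chromosome, had an intensity of 1043 and 516 on the replicate 1 arrays and between 48.6 and 56.4 on the others. By these genes replicate 1 of each group came from male mice and the other replicates from female mice. Arrays of the same group correlated at 0.981 or more (Pearson's r across tested probes) and arrays of different groups at 0.912 or less. Results are given without both replicate 1 arrays where that changes a call. Nothing in the labels ties replicates to different mice or cultures, and by the genes above replicate 1 came from other mice than replicates 2 and 3. Whether replicates 2 and 3 came from separate mice is not known, so p-values cover the spread among these samples, and some of it may be technical.

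B cell markers were bright, with a mean log2 intensity of 15.42 for Cd74 and 14.57 for Cd79b in untreated samples. Of 8 B cell markers on the array, 6 were lower with anti-IgM and none was higher. The summed intensity of these markers ran from 73702 to 83490 in untreated and from 50095 to 53110 in anti-IgM samples. Among 11 markers of monocytes and macrophages, 2 were lower, Adgre1 and Mpeg1, and the summed intensity ran from 2465 to 7502 in untreated and from 2105 to 3367 in anti-IgM samples. Of 9 neutrophil markers, S100a8 and S100a9 were lower, Retnlg and Cxcr2 stayed below the median throughout, and the sum ran from 1190 to 2102 in untreated and from 1072 to 1275 in anti-IgM samples. Of 9 natural killer cell markers on the array, Nkg7 was higher and Klrd1 was lower, Ncr1 and Gzmb stayed below the median throughout, and the sum ran from 2158 to 6033 and from 2550 to 4838. Of 9 T cell markers, Cd8b1 was lower, Cd8a and Cd5 stayed below the median throughout, and the sum ran from 2271 to 2598 and from 1688 to 1993. Of 10 dendritic cell markers 2 were higher and 2 lower, Cd209a and Ccr9 stayed below the median throughout, and the sum ran from 4672 to 7198 and from 3007 to 4176. None of 6 markers of red cells and platelets passed, and their sum ran from 1429 to 2530 and from 1114 to 2471. Several of the 9 adhesion genes are also expressed by these other leukocytes, and the part of these cells in the changes was not tested.

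**Figure D1:**
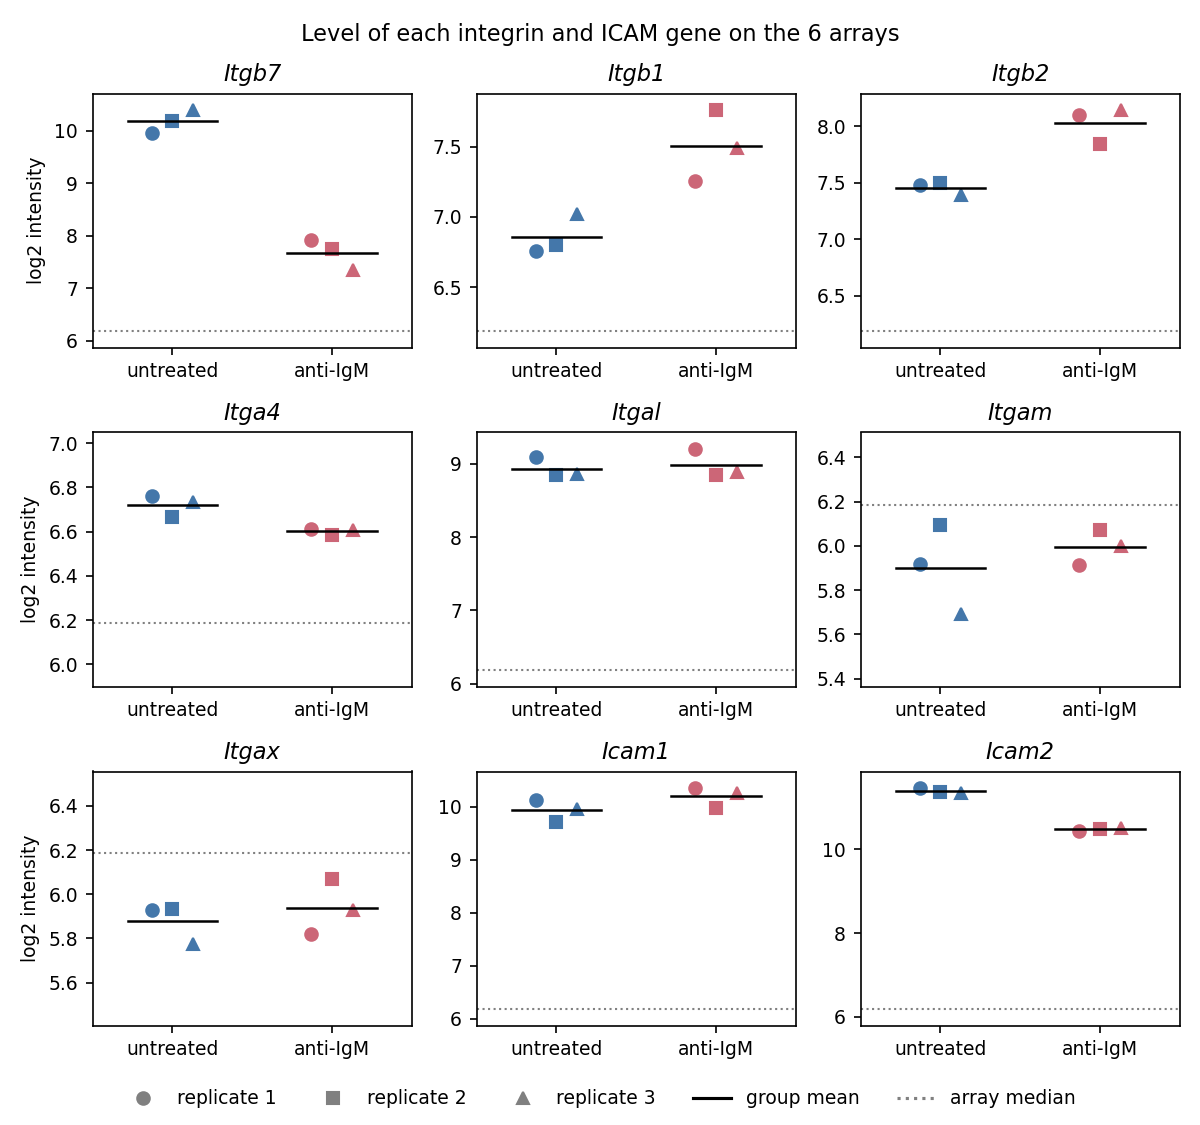
Log2 intensity of the brightest probe of each gene in 3 untreated and 3 anti-IgM samples, 1 panel a gene with its own vertical scale. Each marker is 1 array, its shape giving the replicate number, the bar is the group mean and the dotted line the array median. The groups are far apart for Itgb7, apart for Icam2, Itgb1, Itgb2 and Itga4, and they overlap for Itgal, Icam1, Itgam and Itgax.

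Of the beta chains, Itgb7 is the one whose heterodimer with Itga4 directs lymphocytes to the gut. Its intensity was 994, 1169 and 1345 in untreated replicates 1, 2 and 3, and 242, 216 and 164 in the anti-IgM replicates. Every untreated sample was far above every anti-IgM sample. The mean log2 intensity went from 10.18 ± 0.22 (SD, n = 3) to 7.68 ± 0.29 (SD, n = 3). The log2 change was −2.50 ± 0.17 (SE from limma, 95% interval −2.89 to −2.12; adjusted p = 9.67e-07). Among the 5687 genes tested with a negative change, 117 were at least as low in log2 change, or 2.06% of them. Within the numbered pairs the log2 change was −2.04, −2.43 and −3.04, so the pairs shared the direction and differed in size. In anti-IgM samples the gene stayed above the array median of all 3 arrays, so the fold is a measured value and not a bound.

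Itgb1 encodes the beta chain shared by a large group of integrins, among them the fibronectin and VCAM-1 receptors. Its intensity was 108, 111 and 130 in the untreated samples and 153, 217 and 180 in the anti-IgM samples, replicates 1 to 3. The anti-IgM values were all above the untreated ones, and the spread was wider among them. The log2 change was 0.65 ± 0.17 (SE; 95% interval 0.26 to 1.03; adjusted p = 0.0098, limma). The array carries another probe of Itgb1, with intensities of 103, 95.4 and 66.0 in untreated and 104, 130 and 114 in anti-IgM samples. Its groups did not overlap either, with a log2 change of 0.41 ± 0.19 that did not pass the test over all probes (adjusted p = 0.11, limma). Both probes were dim, and background that was not subtracted compresses folds of dim probes. With the 1st percentile of each array subtracted and an offset of 16 added, the change of the brighter probe was 0.81 (adjusted p = 0.0099, limma).

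Itgb2 encodes the beta chain of the leukocyte integrins, the partner of the products of Itgal, Itgam and Itgax. Its intensity was 178, 181 and 168 in the untreated samples and 273, 230 and 283 in the anti-IgM samples. The untreated samples were close together and all of them lay below the anti-IgM samples. Itgb2 changed by 0.57 ± 0.15 (log2, SE; 95% interval 0.24 to 0.90; adjusted p = 0.0086, limma). The change was positive within each numbered pair, at 0.62, 0.35 and 0.75. Among the markers of other leukocytes given above, calls were of both signs for natural killer and dendritic cells. Calls were few and lower for T cells (1 of 9 markers), for monocytes and macrophages (2 of 11) and for neutrophils (2 of 9). The summed intensities overlapped between groups for monocytes and macrophages and for neutrophils, and did not for T cells. The part of other leukocytes in the change of Itgb2 was not tested.

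**Figure D2:**
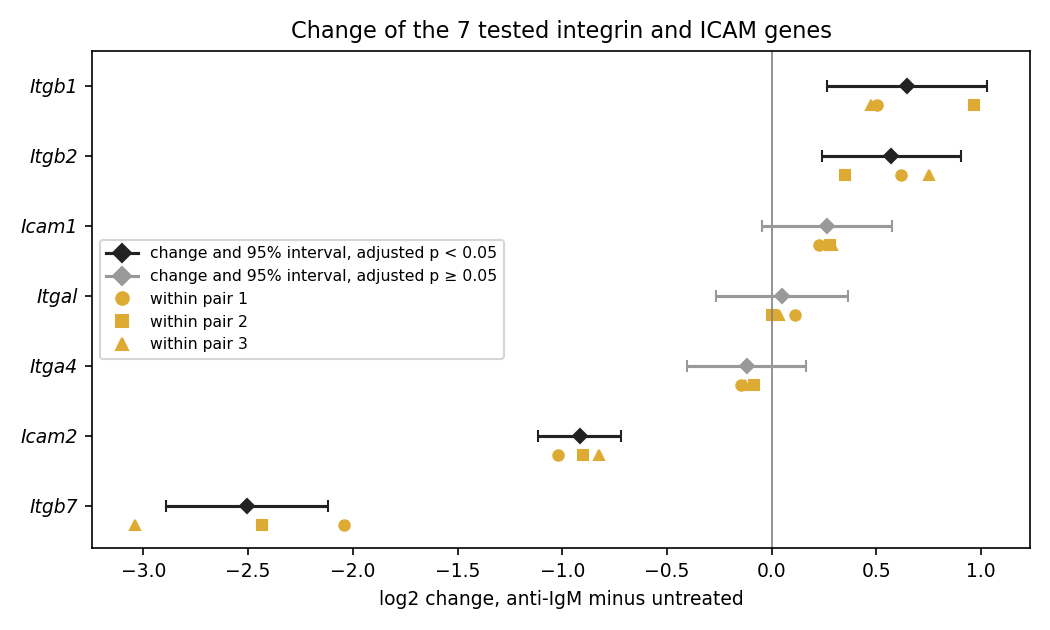
Log2 change, anti-IgM minus untreated, of the 7 tested genes, with n = 3 in each group. Diamonds are the limma estimate with its 95% interval, black where the adjusted p is under 0.05, and gold markers are the changes within numbered pairs 1, 2 and 3. Itgb1 and Itgb2 lie above 0, Icam2 and Itgb7 lie below 0, and the intervals of Icam1, Itgal and Itga4 include 0.

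Of the alpha chains, Itgal encodes the LFA-1 chain that contacts ICAMs. Its intensity was 544, 460 and 463 in untreated and 589, 461 and 474 in anti-IgM samples. Replicate 1 was the highest in each group and the groups overlapped. Itgal changed by 0.05 ± 0.14 (log2, SE), with a 95% interval from −0.26 to 0.36 (adjusted p = 0.81, limma).

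Itga4 encodes the chain shared by the VCAM-1 and MAdCAM-1 receptors. Its brightest probe read 108, 102 and 106 in untreated and 97.8, 95.9 and 97.4 in anti-IgM samples. All untreated values were above all anti-IgM values, by a small amount. The groups of 54.8% of all genes tested did not overlap. The log2 change was −0.12 ± 0.13 (SE; 95% interval −0.40 to 0.16; adjusted p = 0.49, limma). The other 5 probes of Itga4 were too dim to test, with intensities between 45.1 and 85.8 beside an array median of 72.8. The platform annotation gives a RefSeq transcript for 3 of those 5 dim probes, and for the brightest probe a cDNA accession outside RefSeq. The level of Itga4 is therefore poorly measured here, and a change in it can be understated.

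Itgam and Itgax encode alpha chains best known from macrophages, neutrophils and dendritic cells, and Itgax also from some B cell subsets. The single probe of Itgam read 60.5, 68.4 and 51.6 in untreated and 60.3, 67.3 and 64.0 in anti-IgM samples. The brighter of 2 probes of Itgax read 61.0, 61.1 and 54.8 in untreated and 56.6, 67.1 and 60.9 in anti-IgM samples. Neither gene exceeded the median of any of the 6 arrays, so neither has a measured change. With every probe tested, neither passed (adjusted p = 0.69 for Itgam and 0.79 for Itgax, limma).

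**Figure D3:**
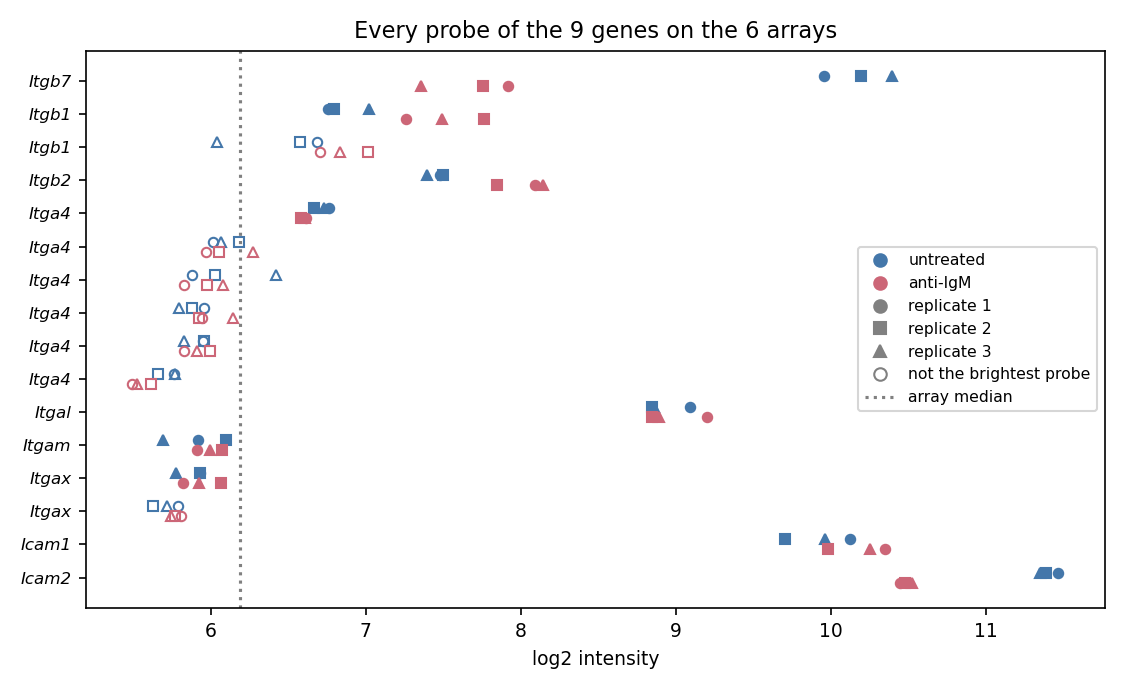
Log2 intensity on the horizontal axis for each of the 16 probes of the 9 genes, 1 row a probe, in 3 untreated (blue) and 3 anti-IgM (red) samples. Filled markers are the brightest probe of a gene, open markers its other probes, and the dotted line is the array median. The 3 probes of Itgam and Itgax lie left of the median on every array, and 5 of the 6 Itga4 probes lie at or left of it on most arrays.

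Among the ligands, Icam2 encodes an ICAM that lymphocytes and vessel walls carry at rest. Its intensity was 2829, 2670 and 2606 in untreated and 1393, 1428 and 1470 in anti-IgM samples. The groups were far apart beside the small spread within each, with an SD of 0.06 and 0.04 on the log2 scale (n = 3 each). Icam2 changed by −0.92 ± 0.09 (log2, SE; 95% interval −1.12 to −0.72; adjusted p = 1.12e-05, limma). The change was −1.02, −0.90 and −0.83 within pairs 1, 2 and 3.

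Icam1 encodes the ICAM known to be induced by NF-kB in many cell types. Its intensity was 1116, 833 and 995 in untreated and 1304, 1010 and 1217 in anti-IgM samples. The groups overlapped, since untreated replicate 1 was above anti-IgM replicate 2. The log2 change was 0.26 ± 0.14 (SE; 95% interval −0.05 to 0.58), with an adjusted p of 0.16 in limma. Within the numbered pairs it was 0.22, 0.28 and 0.29, higher in 3 of 3, and with the replicate number as a block the gene passed (adjusted p = 0.022, limma). Replicate 2 was the lowest and replicate 1 the highest in each group. Without both replicate 1 arrays and with no block, the adjusted p was 0.059.

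Sequences upstream of these genes are shown for Itgb7 and Itgb1, the beta chains that changed most in each direction, and for Icam1, the ligand with a known NF-kB element. RefSeq promoter windows of GRCm38.p6, from 250 bases before to 50 bases after the annotated start, matched 6 of the 9 genes. The windows were searched on both strands for TATAAA, the TATA box, for GGAAATTCC, an NF-kB element of the human ICAM1 gene, for GGGCGG, the core of the SP1 site, and for GGAAGT, a core bound by ETS factors. Capitals mark each match. The sequences run 5′ to 3′ on the strand of the gene. No matches overlapped in these windows. The Itgb7 window is chr15:102231886-102232185 on the minus strand, the Itgb1 window chr8:128685404-128685703 on the plus strand and the Icam1 window chr9:21015690-21015989 on the plus strand.
Itgb7: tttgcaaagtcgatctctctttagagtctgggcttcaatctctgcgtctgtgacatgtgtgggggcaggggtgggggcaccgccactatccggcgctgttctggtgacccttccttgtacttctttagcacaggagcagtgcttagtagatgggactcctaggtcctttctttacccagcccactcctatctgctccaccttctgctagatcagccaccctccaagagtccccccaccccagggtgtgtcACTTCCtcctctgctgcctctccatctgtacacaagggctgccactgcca
Itgb1: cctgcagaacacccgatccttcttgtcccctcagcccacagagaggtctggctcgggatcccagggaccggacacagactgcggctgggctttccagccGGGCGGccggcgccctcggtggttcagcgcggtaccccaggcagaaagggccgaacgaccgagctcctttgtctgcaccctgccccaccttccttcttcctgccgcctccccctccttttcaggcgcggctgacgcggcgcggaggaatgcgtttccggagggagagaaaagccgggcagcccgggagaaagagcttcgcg
Icam1: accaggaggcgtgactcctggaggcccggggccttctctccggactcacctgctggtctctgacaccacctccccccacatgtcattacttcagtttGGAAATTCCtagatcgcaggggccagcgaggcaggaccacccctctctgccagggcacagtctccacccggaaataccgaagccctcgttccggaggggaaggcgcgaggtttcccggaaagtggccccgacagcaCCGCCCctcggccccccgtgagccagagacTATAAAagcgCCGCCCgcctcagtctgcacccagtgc
The Itgb7 window held 1 match, to GGAAGT on the opposite strand, which began at base 1 after the start. Such a match was found in 23.8% of 32851 promoter windows of the same length. The Itgb1 window held 1 match, to GGGCGG, 151 bases before the start, where 35.7% of windows held one. The Icam1 window held the NF-kB element 153 bases before the start, which 0.317% of windows held. It also held TATAAA from base 14 after the annotated start, found in 13.6% of windows, and GGGCGG at 2 places on the opposite strand. A match describes these letters and is no evidence of binding in these cells.

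To compare chains that form a heterodimer, and both ICAMs, without setting the brightness of one probe against another, the log2 difference of both genes was taken on each array and compared between groups. The Itga4 value minus the Itgb7 value was −3.20, −3.52 and −3.66 in untreated and −1.30, −1.17 and −0.75 in anti-IgM samples, a shift of 2.38. Itga4 minus Itgb1 shifted the other way by −0.77, from a mean of −0.14 ± 0.15 (SD, n = 3) to −0.90 ± 0.27 (SD, n = 3). Both pairs share the dim Itga4 probe, so they show how the beta chains moved apart more than they show Itga4.

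For LFA-1, the Itgal value minus the Itgb2 value was 1.61, 1.35 and 1.46 in untreated and 1.11, 1.00 and 0.75 in anti-IgM samples, a shift of −0.52. The shifts of Itgam and Itgax against Itgb2, −0.48 and −0.51, involve alpha chain probes below the array median, which have no measured change of their own. The Icam1 value minus the Icam2 value shifted by 1.18, from a mean of −1.47 ± 0.18 (SD, n = 3) to −0.29 ± 0.20 (SD, n = 3). In each of the 6 pairs the groups did not overlap. Among single genes, the groups of 54.8% of all genes tested did not overlap. Pairs with Itgb2 have that gene in common, as do pairs with Itga4, so the 6 are not independent. The exact two-sided permutation test gave p = 0.10 for each, which is the smallest p that 3 samples against 3 allow, and 0.10 after Benjamini-Hochberg adjustment over the 6 pairs.

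**Figure D4:**
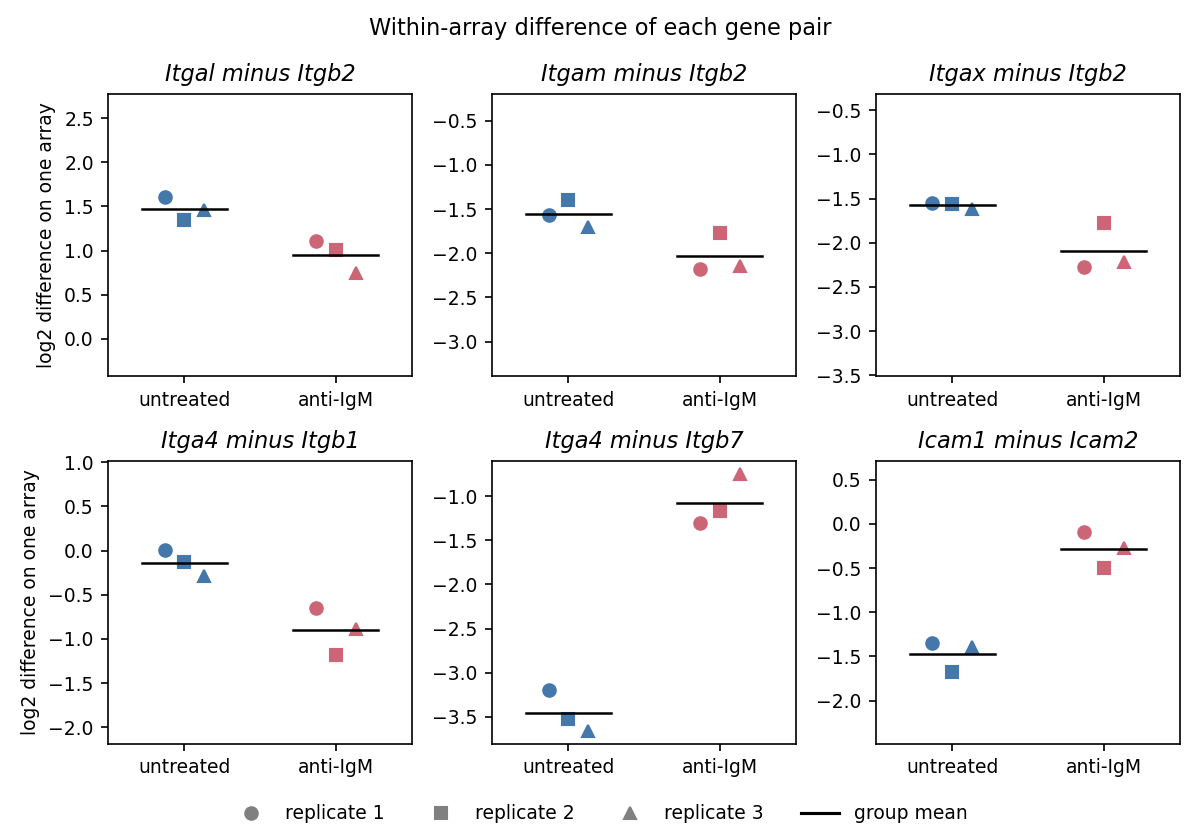
Log2 difference between both genes of a pair on the same array, in 3 untreated (blue) and 3 anti-IgM (red) samples, with 1 panel a pair and the same span on each vertical axis. Markers give the replicate number and bars the group means. Itga4 minus Itgb7 shifts up by 2.38 and Icam1 minus Icam2 by 1.18, while Itga4 minus Itgb1 and the 3 pairs with Itgb2 shift down.

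The genes whose pattern over the 6 arrays was most like that of Itgb7 were Cyp4f18, a cytochrome P450, Nod1, an intracellular receptor of bacterial peptides, and Rasgrp1, an activator of RAS. Likeness was the root-mean-square difference between log2 values centred on each gene's own mean, at 0.15, 0.17 and 0.17, among all genes tested. Their log2 changes were −2.45 ± 0.13, −2.50 ± 0.16 and −2.49 ± 0.14 (SE). For Itgb1 the most alike were Ranbp3, a cofactor of nuclear export, Rad18, a ubiquitin ligase of DNA damage tolerance, and Paip1, a translation factor, at 0.058, 0.064 and 0.075.

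Of the other integrin subunits, 18 of 19 were on the array and 10 were tested. Itga9 and Itgae rose and Itga6 fell, and the other 7 did not pass. This share of calls is below the 47.1% over all genes tested, of which 23.2% rose and 23.9% fell. The median log2 change was 0.09 over the 10, beside 0.02 over all genes tested. Itga6, a laminin receptor chain, changed by −0.70 ± 0.13 (SE). Itga9, another partner of the Itgb1 chain, and Itgae, a partner of the Itgb7 chain, did not exceed the median of any untreated array. Their rises are bounds of at least 1.29-fold and at least 1.26-fold. Their probes exceeded the median on the 3 anti-IgM arrays alone, and 3 arrays were needed to enter the test. Leaving out any anti-IgM array therefore took these probes out of the test. Neither was called without both replicate 1 arrays, without anti-IgM replicate 1 or without anti-IgM replicate 2, where 1 subunit of the list was called. Those fits do not retest the rises of Itga9 and Itgae. When a probe had to exceed the median on every array, 5 subunits were tested and limma called none. That filter took out the called probes of Itga9, Itgae and Itga6, the last above the median on 2 of the 3 anti-IgM arrays. That filter therefore did not retest the calls of these genes. Itga9 and Itgae stayed in the test when an untreated array was left out. Each of those fits called 1 subunit of the list higher, where 2 were called higher with all arrays. At least 1 of the 2 rises thus lost its call there while its probe was still tested.

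Genes of the machinery that switches integrins on from inside the cell were also counted. The list held talin, kindlin, the GTPase RAP1 and its regulators, and further genes, among them Cytip, Fyb and Adap1. Of its 24 tested genes, 17 fell and 2 rose, with a median of −0.66. Of all genes tested, 23.9% fell and 23.2% rose. Cytip, which binds cytohesin and lowers adhesion through LFA-1, fell 7.29-fold (−2.87 ± 0.13; adjusted p = 6.57e-08, limma). Rassf5, the RAP1 effector that couples to LFA-1, fell 5.04-fold (−2.33 ± 0.10). Genes that promote and genes that restrain integrin activation were both among those that fell. Singled out after their values were seen, the RAP1 inactivators Sipa1 and Sipa1l1 changed by −2.21 ± 0.20 and −2.25 ± 0.12. The RAP1 activator gene Rasgrp2 changed by −1.61 ± 0.17, and its probe exceeded the median of 1 of the 3 anti-IgM arrays. The kindlin gene Fermt3 changed by −0.96 ± 0.14. The talin gene Tln1 changed by −0.67 ± 0.23 (adjusted p = 0.032, limma). Its groups overlapped, and its probe exceeded the median of 2 of the 3 anti-IgM arrays.

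The rises in that list were small. Rap1b, 1 of the RAP1 genes, rose by 0.33 ± 0.09 (adjusted p = 0.012, limma) from a high mean log2 intensity of 13.26. Adap1, a regulator of ARF6 that is a different gene from the integrin adaptor Fyb, rose by 0.60 ± 0.16. Fyb itself, also singled out after its value was seen, did not pass (−0.22).

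Links to the cytoskeleton and signalling from bound integrins were lower in 12 and higher in 2 of 25 tested genes, with a median of −0.53. The 14 calls among 25 are near the 47.1% over all genes tested. By direction, 23.9% of all genes tested fell and 23.2% rose, with a median of 0.02, so falls made up more of the calls here. No set test was run. Wipf1, which stabilises the actin regulator WASP, fell 4.90-fold (−2.29 ± 0.12), and Was, which encodes WASP, fell 2.63-fold (−1.40 ± 0.12). The rises were Git1, a scaffold of focal adhesions, by 1.28 ± 0.20, and Actn4, an actin crosslinker, by 0.78 ± 0.15. Actn1, its relative, singled out after its value was seen, was lower (−1.08 ± 0.15).

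Of 18 tested genes of other ligands and adhesion molecules, 5 fell and 2 rose, with a median of 0.03, and this share of calls is not above the 47.1% over all genes tested. Pecam1, an adhesion molecule of leukocytes and vessels, fell 8.37-fold (−3.07 ± 0.17), and Cd22, a lectin of B cells, fell 7.73-fold (−2.95 ± 0.20). Cd44, the hyaluronan receptor, rose 4.11-fold (2.04 ± 0.17), and Alcam, a ligand of CD6, rose (0.58 ± 0.11). Vcam1 and Madcam1, named as ligands of the Itga4 integrins that are made mainly by other cells, did not pass (0.14 and 0.05).

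Of 15 tested surface partners of integrins, mainly tetraspanins, 4 rose and 6 fell, with a median of −0.14, beside 23.2% and 23.9% over all genes tested. Cd63 rose 8.33-fold (3.06 ± 0.19) and Cd9 rose 3.73-fold (1.90 ± 0.22), while Tspan32 fell 6.28-fold (−2.65 ± 0.11). Cd47, a receptor that associates with integrins, fell 5.02-fold (−2.33 ± 0.16). Slc3a2, which encodes the CD98 heavy chain that binds beta integrin tails and was singled out after its value was seen, rose by 1.18 ± 0.17. Its mean log2 intensity in untreated samples was 6.32, near the array median of 6.19, so the rise can be understated.

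**Figure D5:**
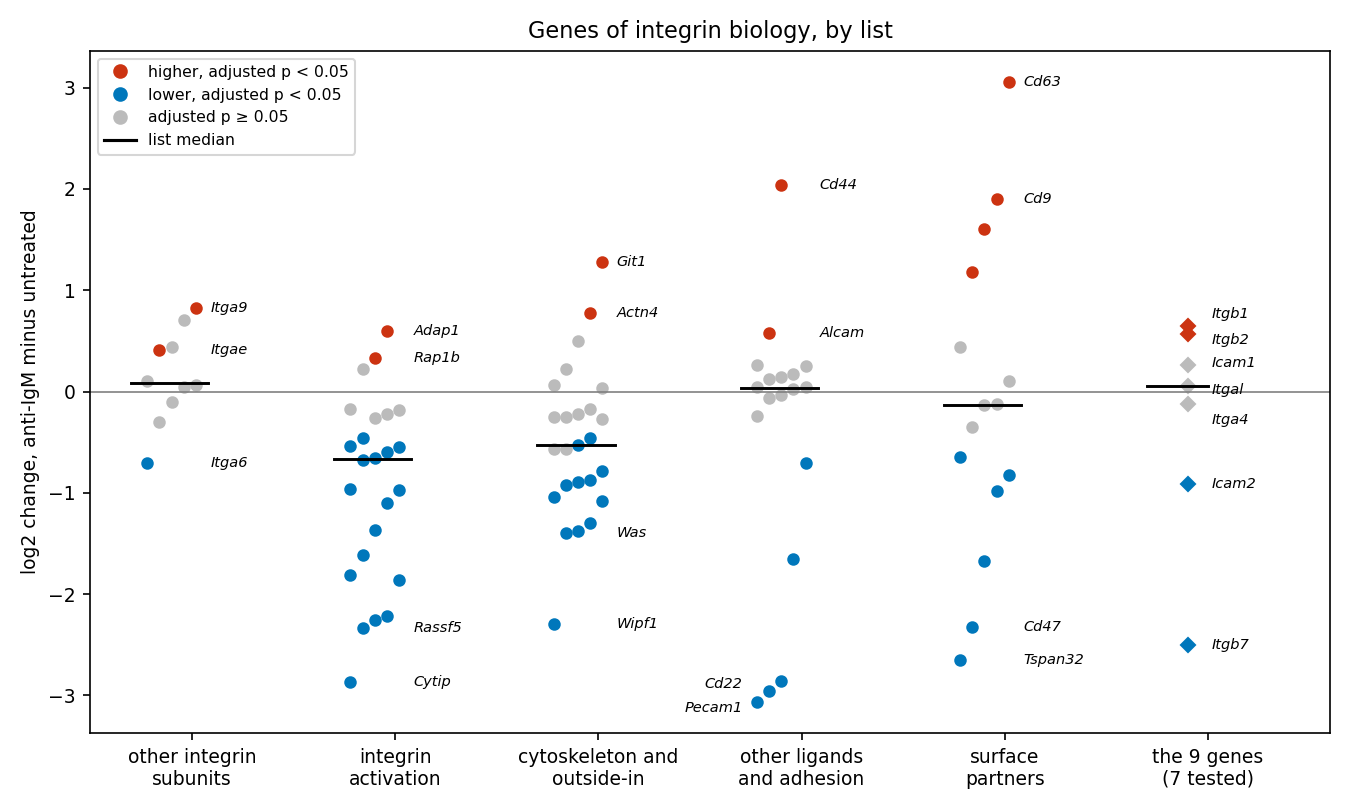
Log2 change, anti-IgM minus untreated, of the tested genes of 5 lists of integrin biology and of the 9 adhesion genes, of which 7 were tested. Red marks a rise and blue a fall at an adjusted p under 0.05 in limma, grey the rest, and the bar is the list's median. The genes of integrin activation have a median of −0.66, and the surface partners spread from −2.65 to 3.06.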

How the data were processed

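RNA of purified mouse spleen B cells was read on 6 Illumina arrays of 45281 probes. The authors deposited intensities on a linear scale, already normalized between arrays as found from the values, whose median was 72.8 on every array. How this was done is not given in the sources. The 6 columns of an unnormalized table match no sample label and were not used. Samples were grouped by title.

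Intensities were taken as log2 without further normalization. A probe was tested when above its array's median on at least 3 arrays, which left 23505 probes and, with 1 probe a gene, 11855 genes. Names came from the platform annotation. Groups were compared with limma 3.58.1 in R 4.3.3 (lmFit and eBayes with an intensity trend, two-sided, group as the single term), with p adjusted by Benjamini-Hochberg across the genes tested and a threshold of 0.05. The test was checked on simulated data. Precision is limited by how few arrays there are (median SE 0.15). A gene not above the median on any array of 1 group has a bound, set against the median of those arrays.

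The 9 genes and the 5 lists were chosen with earlier results of these data known. Named besides the 9 were the 2 largest rises and falls of each list among called genes without overlap, and the 3 genes most like Itgb1 and Itgb7. Others are named as part of small counts or were singled out after their values were seen. Deviations from the group means correlated at 0.60, 0.27 and 0.32 for arrays with the same replicate number, each over 0.1. The numbers in the titles were taken to pair the samples. By Xist and Eif2s3y, replicate 1 differed in sex from replicates 2 and 3 in both groups. That difference can by itself give replicates 2 and 3 shared deviations. Arrays with different numbers were not correlated in this way, so the match of replicates 2 and 3 by number is an assumption. The alternatives were the replicate block, left-out arrays, other filters, scaling, background, variance model and probe summary. Figures were made in matplotlib 3.10.9 under Python 3.11.15.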

Additional observations from a re-analysis of the deposited data

How the results depend on the processing

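Over 15 alternatives, Itgb1 and Itgb2 kept their rise and Itgb7 and Icam2 their fall, each with an adjusted p under 0.05 in limma. The highest adjusted p of Itgb1 was 0.044 and that of Itgb2 was 0.035. Leaving out 1 array at a time gave log2 changes between 0.52 and 0.77 for Itgb1, 0.51 and 0.66 for Itgb2, −2.63 and −2.34 for Itgb7, and −0.94 and −0.88 for Icam2. With the replicate block Icam1 passed (adjusted p = 0.022), which made 3 genes that rose, and the block changed no other call among the 9 genes. Itgal, which was not called, ranged from −0.061 to 0.13 when 1 array was left out, and changed sign without anti-IgM replicate 1 (−0.061, adjusted p = 0.78). Over all genes tested, between 4900 and 6397 were called. Of the other integrin subunits, 3 were called in the comparison as reported and 1 without both replicate 1 arrays. None (0 of 5) was called when a probe had to exceed the median on every array. Both of these fits tested fewer genes. The former took out the called probes of Itga9 and Itgae, and the latter those of all 3 called subunits. The lower counts therefore come from the filter and do not retest those calls. Leaving out 1 array gave between 1 and 3. Without untreated replicate 2, and likewise without untreated replicate 3, 10 subunits were tested and 1 was called higher, beside 2 as reported. There at least 1 of the rises of Itga9 and Itgae was tested and not called. The counts of the other 4 lists stayed within 1.5 times under all 15 alternatives. Without both replicate 1 arrays, 20 genes of integrin activation were called beside 19 as reported. For the cytoskeletal list it was 16 beside 14, for other ligands 6 beside 7, and for surface partners 12 beside 10. The direction of the 6 within-array shifts held in all 10 alternatives run for them. With the 1st percentile subtracted, the exact permutation p was 0.20 for Itgam against Itgb2 and for Itgax against Itgb2. The groups of these pairs then overlapped. Low signal over background limits Itga4, Itgam and Itgax.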
